A study of Arabidopsis thaliana with 4 samples.

Results

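The trichome birefringence-like (TBL) genes of Arabidopsis thaliana are named after TBR, whose loss removes the birefringence of leaf hairs under polarised light. They were taken here as all probe sets with a single gene whose symbol in the array's annotation is TBL followed by a number. This gave 22 probe sets for 22 genes, of the 13513 probe sets that carry 1 gene and the 22746 that are not controls. RefSeq lists 45 genes with a TBL number as symbol or synonym. Of those without such a probe set, only AT2G31110 (TBL40) was analysed here, and it was not counted as a member. Whole seedlings of wild-type Col-0 and of the mutant exo70A1-2, of Col-0 strain, were compared on 2 Affymetrix ATH1 arrays each. The mutated gene, EXO70A1, codes for part of the exocyst, which docks secretory vesicles at the plasma membrane. The labels give both genotypes the same age of 1 week and the same growth, on vertical 1.6% agar plates at 22 °C under constant light. Both also had 65% humidity, 3 days of cold storage and 75 seeds per plate. No probe set carries the name of EXO70A1 alone, so the genotype labels could not be checked on the targeted gene.

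Many wall polysaccharides carry acetyl groups, which alter how the chains pack and bind one another. Several TBL proteins lie in the Golgi membrane and are known to transfer acetyl groups onto xylan, mannan or xyloglucan, though not all members are known to act in this way. RWA proteins act in the same pathway, in the supply of acetyl groups to the Golgi. The finished polysaccharides then travel to the cell surface in secretory vesicles.

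Of the 22 TBL probe sets, 15 reached the 40th percentile of mean log2 signal, which equals a signal of 21.9 (the dim limit), and were tested for a difference between the genotypes. One gene, TBL26, was lower in exo70A1-2, and 0 were higher, at an adjusted p under 0.05 (limma, Benjamini-Hochberg over all 13648 tested probe sets). The 1 lower call is 6.67% of the tested TBL probe sets, against 7.50% of all tested probe sets that were lower, while 8.54% of all were higher. That single call is of a gene whose mutant arrays were both dim, and which was bright enough to test only through its Col-0 signal. At an unadjusted p under 0.05 (limma), 3 of the 15 were lower and 1 was higher, against 31.4% of all tested probe sets in either direction. The remaining 14 tested members did not pass, and their log2 fold changes ran from -0.68 to 0.39. Whether replicate arrays stand for separate cultures is not given in the labels, so the p-values reflect the spread between arrays only, and that may be technical. In RNA of whole seedlings, fewer cells of a type and less RNA per cell cannot be told apart.

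**Figure D1:**
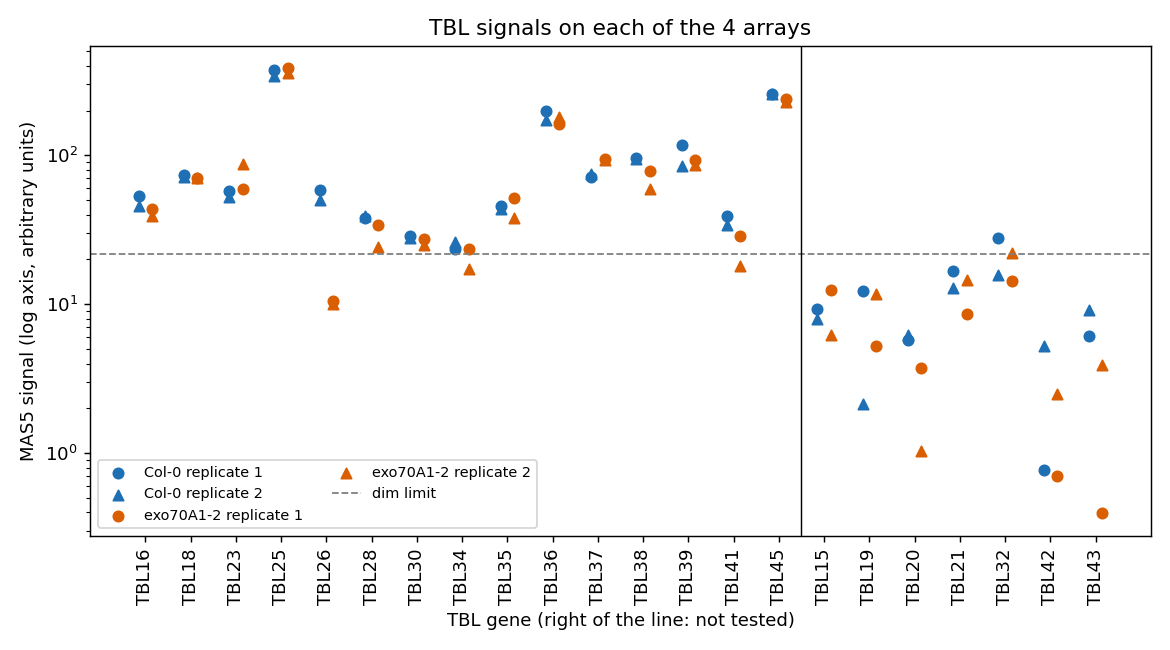
Signal of each of the 22 TBL probe sets on each of the 4 arrays (log axis, arbitrary units), with the dim limit of 21.9 as a dashed line and the 7 untested members to the right of the vertical line. For TBL26 both mutant arrays lie under the limit, at 10.45 and 10.01, and both Col-0 arrays above it.

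TBL26 (AT4G01080) belongs to the TBL genes known to encode mannan acetyltransferases. Its signal was 58.2 and 50.4 on the Col-0 arrays and 10.45 and 10.01 on the exo70A1-2 arrays. The genotypes did not overlap, and both mutant arrays lay under the dim limit, so that the gene reached the test through its Col-0 signal. Mean signal was 54.3 ± 5.48 in Col-0 and 10.2 ± 0.310 in exo70A1-2 (SD, n = 2 arrays here and below). Because the mutant signal was dim, the difference is given as at least 2.47-fold lower in exo70A1-2, the Col-0 mean on the log2 scale against the dim limit. The fitted log2 fold change was -2.40 (SE 0.23, limma, adjusted p = 0.00045), and the log2 differences between single mutant and single Col-0 arrays ran from -2.54 to -2.27. With 16 added to each signal, which damps differences near background, this value was -1.42 and the call was kept.

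The other mannan acetyltransferase genes measured, TBL23 and TBL25, did not pass the test. TBL23 (AT4G11090) gave 58.1 and 52.4 in Col-0 and 59.8 and 87.0 in exo70A1-2. Both mutant arrays were above both Col-0 arrays, 1 of them only just, and the log2 fold change of 0.39 (SE 0.21) did not pass (limma, adjusted p = 0.238). That value was 0.66 without exo70A1-2 replicate 1 and 0.11 without exo70A1-2 replicate 2. TBL25 (AT1G01430) gave 373 and 340.1 in Col-0 and 385.5 and 356.3 in exo70A1-2. Here the genotypes overlapped, and the log2 fold change was 0.06 with a 95% interval from -0.21 to 0.33. Whether the change of TBL26 differs from that of TBL23 or TBL25 was not tested.

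Among the genes known to encode xylan acetyltransferases, 5 were measured, 4 were tested and 0 passed (limma), also 0 at an unadjusted p under 0.05, against 8.54% higher, 7.50% lower and 31.4% unadjusted over all tested probe sets. With only 4 genes tested, 0 calls cannot be told apart from those shares. They add acetyl groups to xylan, the main hemicellulose of secondary walls. TBL28 (AT2G40150) gave 37.95 and 38.97 in Col-0 and 34.3 and 24.4 in exo70A1-2. Both mutant arrays were lower, but they lay further apart than the Col-0 arrays, and the log2 fold change of -0.41 (SE 0.23) did not pass (limma, adjusted p = 0.251). That value was -0.17 without exo70A1-2 replicate 2 and -0.66 without exo70A1-2 replicate 1. TBL30 (AT2G40160), the direct neighbour of TBL28 in the genome, had a log2 fold change of -0.12, TBL34 (AT2G38320) of -0.29 and TBL35 (AT5G01620) of 0.00. The TBL34 value includes 1 mutant array under the dim limit. TBL32 (AT3G11030) was too dim to test. Its probe set is of a type that can bind several related transcripts, so its signal may not be of TBL32 alone.

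TBL38 and TBL41 were the members nearest to the threshold among those of other or unknown substrate that had lower signals in the mutant. TBL38 (AT1G29050), known as a pectin acetylesterase of seed coat mucilage cells, gave 96.4 and 94.6 in Col-0 and 78.7 and 59.5 in exo70A1-2. The genotypes did not overlap, and the log2 fold change was -0.48 (SE 0.17, limma, adjusted p = 0.0979), or -0.28 without exo70A1-2 replicate 2. TBL41 (AT3G14850) gave 39.0 and 34.3 in Col-0 and 28.9 and 18.0 in exo70A1-2, with the second mutant array under the dim limit. Its log2 fold change was -0.68 (SE 0.27, limma, adjusted p = 0.118), with a 95% interval from -1.28 to -0.08. Without exo70A1-2 replicate 1 the fitted log2 fold change of TBL41 was -1.02, but the only mutant array left was then the dim one. Without exo70A1-2 replicate 2 its value was -0.34.

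**Figure D2:**
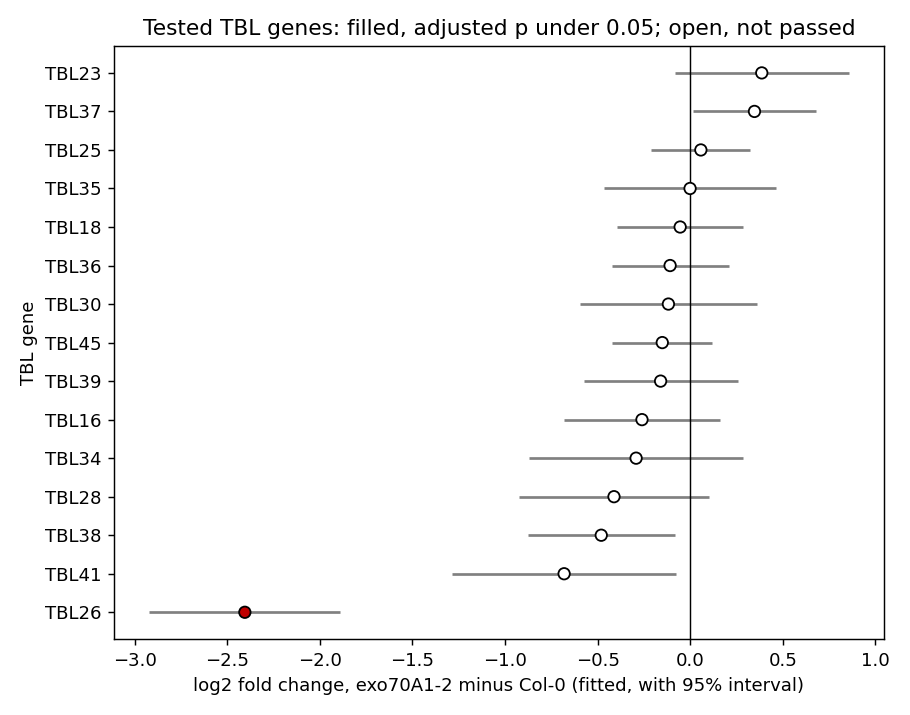
Fitted log2 fold change, exo70A1-2 minus Col-0, of the 15 tested TBL genes (horizontal axis), with 95% intervals as bars, each from 2 arrays per genotype. TBL26 alone is filled, at a fitted -2.40. Both its mutant arrays were under the dim limit, so the data give only a bound, at least 2.47-fold lower, and its interval holds for the fit alone. The 14 open points lie between -0.68 and 0.39.

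The brighter members had close signals in both genotypes. TBL45 (AT2G30010) gave 258.3 and 260.1 in Col-0 and 240.1 and 227 in exo70A1-2. All mutant values were below all Col-0 values, and the log2 fold change of -0.15 (SE 0.12) did not pass (limma, adjusted p = 0.422). TBL36 (AT3G54260) gave 198.4 and 172.5 in Col-0 and 161.5 and 182.2 in exo70A1-2, and the genotypes overlapped. TBL39 (AT2G42570) gave 118.4 and 85.2 in Col-0 and 93.6 and 86.3 in exo70A1-2, where the Col-0 arrays differed more than the genotypes did. Their log2 fold changes were -0.11 and -0.16. Of the others, TBL37 (AT2G34070) had a log2 fold change of 0.35, TBL16 (AT5G20680) of -0.26 and TBL18 (AT4G25360) of -0.05, and none of these passed. For 13 of the 14 members that did not pass, the 95% interval lay inside a 2-fold change either way, the exception being TBL41, and it lay inside 1.5-fold for 6 of them. Of all tested probe sets that did not pass, 93.8% and 50.2% had intervals inside these limits, so the members' counts are near or below the shares over the array.

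The 7 members not tested, for their dim signal, were TBL15, TBL19, TBL20, TBL21, TBL32, TBL42 and TBL43. Their signals ran from 0.395 to 28.1 over the 4 arrays, and 6 of the 7 were under the dim limit on all of them. TBL19 and TBL21 are direct neighbours in the genome, and both were dim throughout. TBL20 and TBL43 had lower signals on both mutant arrays than on both Col-0 arrays, but all of these were dim and no fold is given.

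The log2 fold change was negative for 12 of the 15 tested members, or 80.0%, against 50.1% of all tested probe sets. Their median was -0.15, against 0.00 for all tested probe sets. Setting TBL26 at its bound could not move this median, since TBL26 lies below it either way. The genotypes did not overlap, with the mutant lower, for 8 of the 15 (53.3%, against 30.6% of all tested probe sets) and with the mutant higher for 2 (13.3%, against 30.0%). These values describe the 15 members bright enough to test, not all 22. They also leave out the 3 tested probe sets of TBR and TBL40, which were not counted as members. Those had positive log2 fold changes, from 0.23 to 0.73. A lean to 1 side was also present between replicates. The median log2 difference of replicate 2 minus replicate 1 over the same 15 members was -0.0749 in Col-0 and -0.116 in exo70A1-2. In these genotypes 11 and 12 of the 15 members were lower on replicate 2, so the side was the same in both. Over the 4 possible pairings of a mutant with a Col-0 array, the median difference of mutant minus Col-0 ran from -0.26 to -0.08.

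A pair of genes of the family stand in the array annotation under their locus names and were not counted among the members. TBR itself (AT5G06700) gave 152.3 and 146.3 in Col-0 and 171.3 and 212.5 in exo70A1-2. Both mutant arrays were higher, and the log2 fold change of 0.35 (SE 0.15) did not pass (limma, adjusted p = 0.136). AT2G31110, which RefSeq also calls TBL40, has 2 probe sets. The brighter one gave 34.2 and 41.0 in Col-0 and 57.0 and 67.5 in exo70A1-2, without overlap, and rose by 0.73 on the log2 scale (SE 0.19, limma, adjusted p = 0.0335). The dimmer one gave 26.2 and 22.1 in Col-0 and 32.4 and 24.6 in exo70A1-2, with overlap, and its log2 fold change of 0.23 did not pass. The call for the brighter TBL40 probe set ended without Col-0 replicate 1, exo70A1-2 replicate 1 or exo70A1-2 replicate 2, where limma gave an adjusted p of 0.074, 0.0532 and 0.238. It also ended when dim probe sets were kept in the test, at 0.072.

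Of 126 other listed genes of wall polysaccharide synthesis, acetyl supply, acetyl removal and secondary wall control, 13 had a probe set named for them alone and 11 were tested. The annotation used leaves 8730 of the 22746 probe sets unnamed and gives 503 several genes, so the other listed genes may be on the array without a name. Of these 1 rose and 0 fell (limma), against 14.1% of the 7231 named genes tested, 7.58% higher and 6.54% lower. At an unadjusted p under 0.05, 2 were higher and 0 lower (limma), against 31.4% of all tested probe sets in either direction. The gene that rose was CSLD2 (AT5G16910), listed with the mannan genes and known for its part in root hair growth. Its signal was 127.8 and 126.4 in Col-0 and 170.1 and 190.7 in exo70A1-2, and it rose by 0.50 on the log2 scale (SE 0.13, limma, adjusted p = 0.0355). That call ended on leaving out exo70A1-2 replicate 1 (adjusted p = 0.0803) or replicate 2 (0.287), and without an intensity trend in the variance prior, at 0.066 (limma).

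The remaining wall genes did not pass. CSLA3, which encodes a glucomannan synthase, had a log2 fold change of 0.34. Of the xylan synthesis genes, GUT2 (IRX10) stood at -0.14, GUT1 (IRX10-L) at -0.13 and IRX15-L at -0.33. The CSLC genes, which encode the synthases of the xyloglucan backbone, stood at 0.30 for CSLC4, -0.33 for CSLC5, -0.03 for CSLC6 and -0.37 for CSLC8. GAUT15, of the pectin synthesis family, stood at 0.94 (SE 0.34, limma, adjusted p = 0.0987), with 1 Col-0 array dim, and COB, which acts in the placing of cellulose, stood at -0.06. No probe set was matched by name to an RWA gene, pectin acetylesterase or secondary wall regulator of the lists, so these steps were not analysed here. The names PAE4, PAE5, PAE10, PAE12, MYB103 and VND6 matched no locus, and PAE1 and PAE2 may have matched other genes.

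The measured markers of roots and green shoots were above the dim limit on all arrays. The summed signal of 5 root markers was 7214 to 7246 in Col-0 and 7423 to 7490 in exo70A1-2. PYK10 gave most of that sum and was itself lower in the mutant (4551 and 4505 against 4356 and 4440). The log2 fold changes of NAI2, JAL33, EXPA7 and EXPA18 were positive, from 0.16 for EXPA7 to 0.22 for EXPA18. The 2 green shoot markers summed to 9325 to 10100 in Col-0 and 8764 to 9005 in exo70A1-2. The 3 guard cell lineage markers summed to 91.8 and 80.7 in Col-0 and to 57.4 and 55.3 in exo70A1-2. Of these, MUTE was dim on all arrays and SPCH on exo70A1-2 replicate 2. The phloem marker SWEET11 gave 720.4 and 786.1 in Col-0 against 578.4 and 638.8 in exo70A1-2. Of the 10 tested markers 0 passed (limma), and 3 were lower at an unadjusted p under 0.05, namely SWEET11, SPCH and FMA, a share near the 31.4% of all tested probe sets. The single measured trichome marker, TRY, was dim on all arrays, and for 0 of 9 xylem markers was a probe set named. The part of these cell types in the TBL values was not tested.

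**Figure D3:**
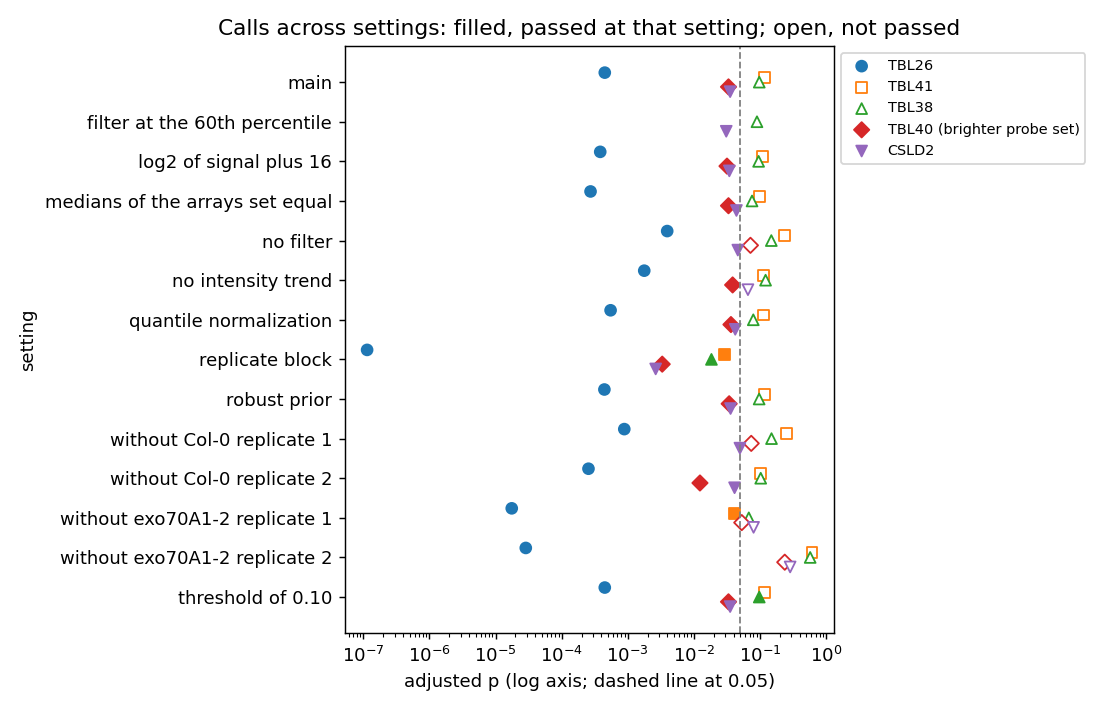
Adjusted p (limma, log axis, dashed line at 0.05) of 5 genes under each setting, filled where the gene passed that setting's own threshold and open where it did not. TBL26, with both mutant arrays dim, passed in each setting in which it was tested, and the stricter intensity filter left it out. Its adjusted p ran from 1.14e-07, with the replicate number as a block, to 0.00396, with dim probe sets kept in the test. Same-numbered arrays are not taken as pairs, so the lower value carries no added weight. All settings draw on the same 4 arrays and are not independent tests. The other 4 genes crossed the threshold with the setting.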

How the data were processed

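The deposited values are linear signal intensities, 1 for each probe set on each array. MAS5 and GCOS are named, with no version, in the submitters' processing notes, and the deposited values show that the authors scaled each array to a mean of 100 with 2% trimmed at each end. MAS5 subtracts mismatch probes, which makes low signals noisy. The median signal per array was 37.3 to 38.8.

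Signals were put on the log2 scale without a constant and without rescaling. The 64 control probe sets were left out. Probe sets whose mean log2 signal reached the 40th percentile were tested with limma 3.58.1 in R 4.3.3 (lmFit, eBayes with an intensity trend, two-sided, prior degrees of freedom 6.66), with Benjamini-Hochberg adjustment over 13648 probe sets. The same code was tested on simulated data, with variances drawn from limma's own fitted prior. That checks the code and not its behaviour on real MAS5 noise. Genes were named through the array's annotation and the RefSeq table of TAIR10.1. All 22 members matched it, and its coordinates are not printed because the files name no genome build. No sequence table was used.

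Every TBL probe set is accounted for. Values on each array are given for members that passed, for the 4 largest absolute changes and the 4 brightest of those that did not, and for family genes under other names. Of the other lists, tested members are named. The members and lists were chosen with earlier results of these data known. Figures were drawn with matplotlib 3.10.9.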

Additional observations from a re-analysis of the deposited data

How the results depend on the processing

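TBL26 was lower in each alternative in which it was tested, with fitted log2 fold changes from -2.51 to -1.42, though with both mutant arrays dim only the bound of at least 2.47-fold lower holds as a size. The number of TBL probe sets lower in exo70A1-2 was 0 with a filter at the 60th percentile, since TBL26 then falls below the filter. It was 2 at a threshold of 0.10, where TBL38 joined (limma, adjusted p = 0.0979). With 1 array left out, a genotype's single array is taken to vary as the other genotype's pair. The fitted log2 fold change of TBL41 then reached -1.02, from a single mutant array under the dim limit. No alternative gave a higher probe set among the counted members. The brighter TBL40 probe set, of a family gene not counted as a member, was higher in the main fit, at 0.73. The median of the tested members ran from -0.22 to -0.09 with 1 array left out. With the replicate number as a block, 3 TBL probe sets were lower, as TBL38 and TBL41 joined (limma, adjusted p = 0.0185 and 0.0289), 4 wall-list genes were higher, TBR passed (adjusted p = 0.0303), and over all probe sets 2168 were higher and 2098 lower, against 1165 and 1024. No label gives what same-numbered arrays have in common, and there are only 2 numbers, so they are not taken as pairs, although the deviations of same-numbered arrays correlated at 0.28 across probe sets. What such arrays may share was not tested. Wall-list genes higher numbered 0 without the intensity trend, 2 at a threshold of 0.10 and 0 to 4 with 1 array left out, against 1. Over all probe sets, 679 were lower without the trend and 1599 at a threshold of 0.10, and with 1 array left out 577 to 1696 were higher and 396 to 1347 lower. The cause of these differences was not tested unless stated. Of 238 combinations of a named gene and an alternative, 226 kept their side of the threshold, 7 lost a call, 5 gained one and 0 reversed. With 2 arrays per genotype and no detection calls used, noise near background limits the dim members.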
